A study of Mus musculus with 6 samples.

Results

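Histone acetyltransferases were followed in the amygdala of mice on a zinc diet and mice on a control diet through all probe sets annotated to Crebbp, Ep300, Kat2a, Kat2b, Kat5, Kat6a, Kat6b, Kat7, Kat8 or Hat1. A probe set is the group of short probes by which the array reads the 3′ end of a transcript. The 10 genes had 24 of the 45101 probe sets of the array, and 16 of these had a mean log2 level of at least 4 over all arrays and were tested. Each gene kept at least 1 tested probe set. The 6 arrays came from the dissected amygdala of 6 male mice of the inbred strain 129S1/SvImJ (S1), aged 8 to 10 weeks, killed 2 h after fear extinction training. Of these, 3 were on the control diet (labelled Ctrl, replicates 1, 9 and 11 by their titles) and 3 on the zinc diet (labelled ZnR, replicates 3, 7 and 10), with 1 array per mouse. All groups shared the strain, the sex and the training, so no array shows the level without training. How much zinc each diet held was not stated in the labels used here. Whether ZnR stands for a raised or a lowered zinc supply was likewise not given. The term zinc diet is therefore only a name for the ZnR group and implies no direction. The series is concerned with histone deacetylase inhibition, dopamine and lasting fear inhibition, and the enzymes described here add the acetyl groups that deacetylases remove.

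Histone acetyltransferases move an acetyl group from acetyl-CoA to lysines of histone tails, which loosens the hold of histones on DNA and makes docking sites for bromodomain proteins. CBP and p300, the products of Crebbp and Ep300, are coactivators that CREB and other activity-dependent factors bring to promoters and enhancers, and CBP is known for its part in memory. GCN5 and PCAF, from Kat2a and Kat2b, work in the SAGA and ATAC complexes. The MYST family, Kat5 to Kat8, works in complexes of its own and holds a zinc finger within its catalytic domain, while CBP and p300 hold several zinc-binding domains. Hat1 acetylates newly made histones before they are built into chromatin.

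Because the groups differ in dietary zinc, the RefSeq promoter windows of the members (GRCm38.p6) were searched for the core letters of the metal response element, the sequence that the zinc-sensing factor MTF1 binds. The letters searched were TGCACNC and TGCGCNC, on both strands, in the 250 bases before each annotated start. Windows were held for 9 of the 10 genes, 13 windows in all, and Kat6a was not searched. The letters stood in 4 of the 13 windows, from the 3 genes Ep300, Kat2a and Kat6b, and in 21.4% of all 32851 windows of the table. The 2 windows of Kat6b overlap and share their match. The matches are shown with up to 20 bases on each side, read 5′ to 3′ on the strand of the gene, with the matched letters in capitals. In Ep300 they lie on the strand opposite to the gene and so appear as their reverse complement.
Ep300, first match, 139 bases before the start, chr15:81586055-81586101, plus strand: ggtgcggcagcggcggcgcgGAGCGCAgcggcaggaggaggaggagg
Ep300, second match, 96 bases before the start, chr15:81586098-81586144, plus strand: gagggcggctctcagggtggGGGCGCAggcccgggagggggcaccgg
Kat2a, 10 bases before the start, chr11:100712468-100712497, minus strand: tgcgccggggccgtgacgccTGCGCACtgt
Kat6b, 83 bases before the start, chr14:21499667-21499713, plus strand: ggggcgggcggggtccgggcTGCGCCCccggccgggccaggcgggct
These are matches of letters and no measure of binding. The half-site TGACG of the cyclic AMP response element, which CREB binds, was searched on both strands as well. It stood in 6 of the 13 windows, from Kat2a, Kat2b, Kat5, Kat7 and Kat8, and in 17.8% of all windows. In Kat2a it lies within the stretch shown, just before the capitals.

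None of the 16 tested probe sets of the 10 genes differed between the diets in the limma test over all 20166 probe sets. Their log2 changes (zinc diet minus control diet) ran from -0.088 for Kat6a to 0.17 for Kat2b, and their limma adjusted p-values lay between 0.82 and 0.996. In the table as a whole, 0% of the probe sets tested were called at an adjusted threshold of 0.05, and the smallest limma adjusted p was 0.057. At an unadjusted p under 0.05, 0 of the 16 passed, against 6.46% of all probe sets tested. The diets did not overlap in 2 of the 16, 1 of Crebbp and 1 of Kat2b, or 12.5%, against 12% of all probe sets tested, so that share was near the background. This count was 4 without control diet replicate 9, where the share over all probe sets, with fewer arrays to separate, was 22.7%. It was 1, that of Crebbp, after quantile normalization (11.8% of all) or median centring (11.3% of all). With each gene read by its tested probe set with the highest mean, 8 of the 10 genes lay above 0, against 54.5% of all genes tested, and the median log2 change was 0.06, against 0.012 over the 11221 genes tested. Without control diet replicate 9, 5 of the 10 lay above 0 and the median was 0.0086.

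**Figure D1:**
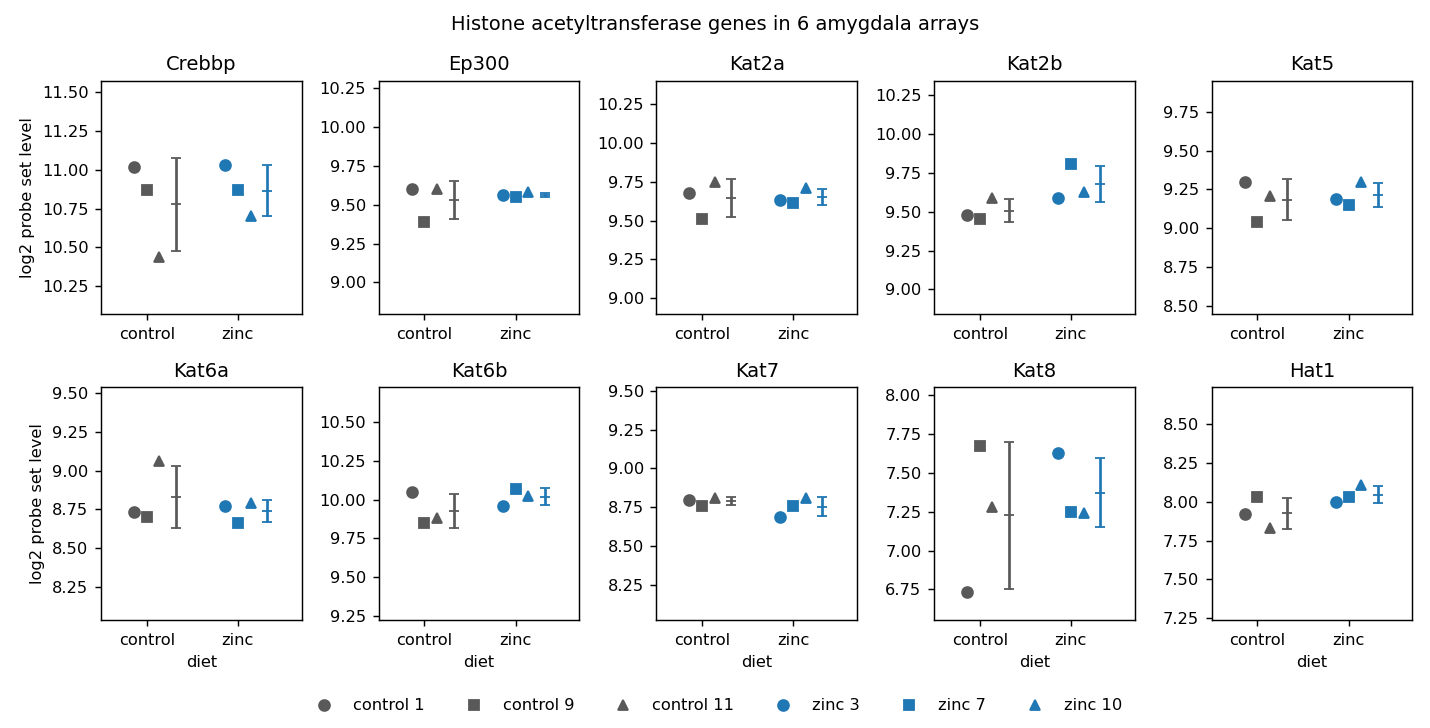
Log2 probe set level (vertical axes, each spanning the same range around the gene's mean) of each gene's tested probe set with the highest mean, by diet. Each point is 1 array, and bars give the mean ± SD of 3 mice. The diets overlap in every panel but that of Kat2b, where the zinc diet mice lie at 9.59 to 9.81 and the control diet mice at 9.45 to 9.59.

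Facts of the whole set of arrays bear on all that follows. Array medians ran from 4.04 to 4.09, and correlations between arrays over the tested probe sets were 0.992 to 0.996. Genes of neurons (mean log2 level of 6 markers 12.84 or higher in every array) and of excitatory (9.34 to 9.49) and inhibitory (10.68 to 10.98) neurons were measured well above the filter. Markers of striatal medium spiny neurons separated the diets, with 10 of 10 tested genes higher in the zinc diet mice and a mean level of 9.35 to 9.76 against 7.87 to 8.28. Myelinating oligodendrocyte markers were highest in zinc diet replicate 7 (10.23, against 9.01 to 9.63 in the other arrays). Their 7 of 7 tested genes had a higher mean in the zinc diet mice (median log2 change 0.44), though the list levels of the diets overlapped. Choroid plexus markers were highest in control diet replicate 9 (9.28, against 5.62 to 6.56). Of their 4 tested genes, 0 had a higher mean in the zinc diet mice (median log2 change -0.98), and the list levels again overlapped. Fewer cells of a type and less RNA per cell cannot be told apart in dissected tissue, and the part of these differences in the values of the acetyltransferase genes was not tested.

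No tested probe set of the CREB coactivators differed between the diets in the limma test. Ep300, read by 1 probe set (1434765_at), had log2 levels of 9.60, 9.39 and 9.60 in control diet replicates 1, 9 and 11 and of 9.56, 9.55 and 9.58 in zinc diet replicates 3, 7 and 10. The zinc diet mice lay within the range of the control diet mice, in which replicate 9 was the low one. The log2 change was 0.032 ± 0.083 (SE), with a 95% interval from -0.16 to 0.23, which corresponds to a 1.12-fold decrease and a 1.17-fold increase (limma adjusted p = 0.974).

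Crebbp was read by 3 tested probe sets, and they did not vary alike. On the one with the highest mean (1436983_at), control diet replicates 1, 9 and 11 stood at 11.02, 10.87 and 10.44 and zinc diet replicates 3, 7 and 10 at 11.03, 10.87 and 10.70. The range within each diet was far wider than the gap between the diet means, and the log2 change was 0.087 ± 0.16 (SE; 95% interval -0.30 to 0.48, limma adjusted p = 0.958); without control diet replicate 11 it was -0.08. On the second (1435224_at), the control diet mice had 9.92, 10.02 and 10.04 and the zinc diet mice 10.14, 10.09 and 10.11. All 3 zinc diet mice were higher here, by a log2 change of 0.12 ± 0.07 (SE) that did not pass (95% interval -0.046 to 0.29, limma adjusted p = 0.834). On the third (1434633_at), the control diet mice had 9.16, 9.35 and 9.46 and the zinc diet mice 9.31, 9.31 and 9.36, with a log2 change of 0.005 ± 0.093 (SE, limma adjusted p = 0.996). Control diet replicate 11 was thus the lowest array on the first probe set and the highest on the third, and the Pearson r between these probe sets over the 6 arrays was -0.84. It was -0.11 between the first and the second and 0.50 between the second and the third. The 3 probe sets share arrays and gene, so these correlations are descriptions. Another probe set of the gene (1459804_at) had a mean of 3.04 and was not tested.

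**Figure D2:**
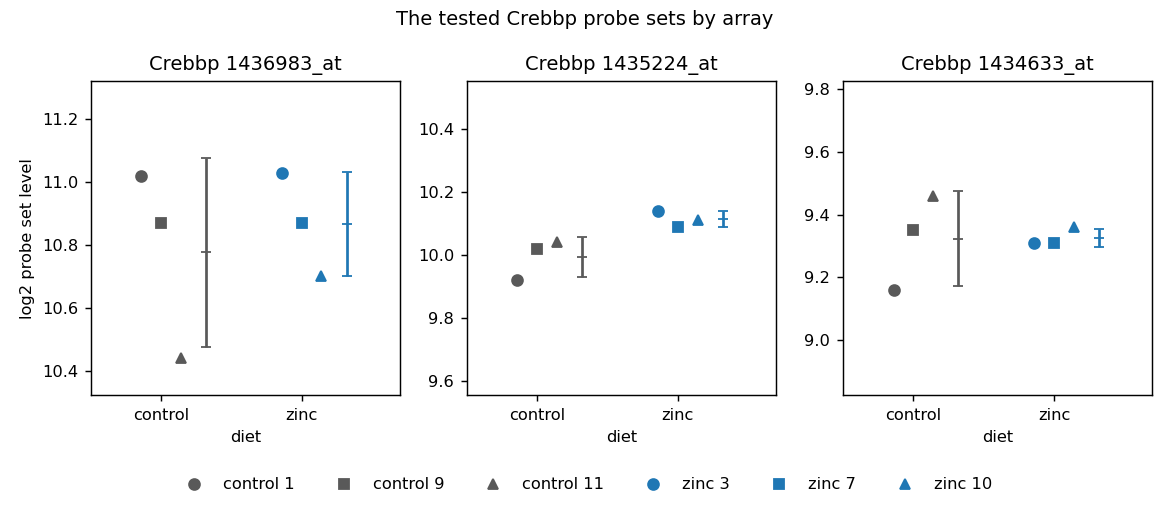
Log2 probe set level (vertical axes, the same span in each panel) of the 3 tested Crebbp probe sets by diet, with 1 point per array and bars for the mean ± SD of 3 mice. Control diet replicate 11 is the lowest array for 1436983_at (10.44) and the highest for 1434633_at (9.46), and only 1435224_at places all zinc diet mice above all control diet mice.

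Of the GCN5 and PCAF pair, Kat2b had the largest estimate among the members. Its tested probe set (1434037_s_at) stood at 9.48, 9.45 and 9.59 in control diet replicates 1, 9 and 11 and at 9.59, 9.81 and 9.63 in zinc diet replicates 3, 7 and 10. The groups did not overlap, though control diet replicate 11 and zinc diet replicate 3 both round to 9.59, and they did overlap after quantile normalization or median centring. Zinc diet replicate 7, the array highest in oligodendrocyte, striatal medium spiny neuron and inhibitory neuron markers, was also highest in Kat2b. The same array was lowest in excitatory neuron markers (9.34), and a relation of any marker list to Kat2b was not tested. The log2 change was 0.17 ± 0.087 (SE; 95% interval -0.04 to 0.37), a 1.12-fold difference that did not pass (limma adjusted p = 0.816). It lay between 0.10 and 0.21 in every alternative run, and without zinc diet replicate 7 it was 0.10. The other Kat2b probe sets lay below the level tested, and their diet means differed by -0.10 (1450821_at) and 0.18 (1457809_at).

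Kat2a was read by 3 tested probe sets, which gave small changes of either sign. On the one with the highest mean (1426783_at), the control diet mice had 9.68, 9.51 and 9.75 and the zinc diet mice 9.63, 9.61 and 9.71. The zinc diet values fell inside the control range, and the log2 change was 0.0063 ± 0.088 (SE; 95% interval -0.20 to 0.21, limma adjusted p = 0.996). This sign turned under quantile normalization (-0.019), with array weights (-0.027) and as the mean of the gene's probe sets (-0.04). The others gave -0.06 ± 0.12 (1422972_s_at) and -0.066 ± 0.086 (1422971_at, with a mean of only 4.96), with the diets overlapping on each.

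In the MYST family, Kat5 and Kat7 gave changes close to 0. Kat5, the catalytic subunit of the TIP60 complex, had 9.30, 9.04 and 9.21 in the control diet mice and 9.19, 9.15 and 9.30 in the zinc diet mice (1433980_at). The log2 change was 0.03 ± 0.092 (SE, 95% interval -0.19 to 0.25), and a second probe set (1433981_s_at) gave -0.032 ± 0.13. The diets overlapped on each probe set, and neither differed in the limma test. Kat7, the catalytic subunit of the HBO1 complex, had the narrowest spread of the members, at 8.80, 8.76 and 8.81 against 8.69, 8.76 and 8.81 in control and zinc diet mice (1433433_at). The change of -0.037 ± 0.069 (SE) had a 95% interval from -0.20 to 0.13, which allows at most a 1.15-fold decrease or a 1.09-fold increase. Its second tested probe set (1447631_at) lay close to the filter, with a mean of 4.09, and gave -0.045 ± 0.14.

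The paralogs Kat6a and Kat6b, from which MOZ and MORF are made, had estimates of opposite sign. Kat6b (1423508_at) stood at 10.05, 9.85 and 9.88 in control diet replicates 1, 9 and 11 and at 9.96, 10.07 and 10.02 in zinc diet replicates 3, 7 and 10. Control diet replicate 1 lay among the zinc diet mice and the other 2 control diet mice lay below them all. The log2 change was 0.091 ± 0.082 (SE; 95% interval -0.10 to 0.29, limma adjusted p = 0.892). Kat6a (1436315_at) stood at 8.73, 8.70 and 9.06 against 8.77, 8.66 and 8.79, where control diet replicate 11 was alone at the top. The change of -0.088 ± 0.11 (SE; limma adjusted p = 0.928) became 0.027 without that mouse. The difference between the changes of the paralogs was not tested.

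Kat8, the enzyme of the MSL and NSL complexes, known for acetylating histone H4, varied most between mice. Its only probe set (1432080_s_at) had 6.73, 7.67 and 7.28 in control diet replicates 1, 9 and 11 and 7.63, 7.25 and 7.24 in zinc diet replicates 3, 7 and 10. The lowest and the highest array were thus both control diet mice. The log2 change of 0.14 ± 0.24 (SE) had a 95% interval from -0.43 to 0.71, so that changes up to a 1.34-fold decrease or a 1.64-fold increase lie within it (limma adjusted p = 0.954). Without control diet replicate 1 the change was -0.11.

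Hat1 (1428061_at) had 7.92, 8.03 and 7.83 in the control diet mice and 8.00, 8.03 and 8.11 in the zinc diet mice. Control diet replicate 9 lay at the level of the middle zinc diet mouse, and the other 2 control diet mice lay below all zinc diet mice. The log2 change was 0.12 ± 0.081 (SE; 95% interval -0.077 to 0.31, limma adjusted p = 0.862), and it lay between 0.067 and 0.17 in every alternative run.

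**Figure D3:**
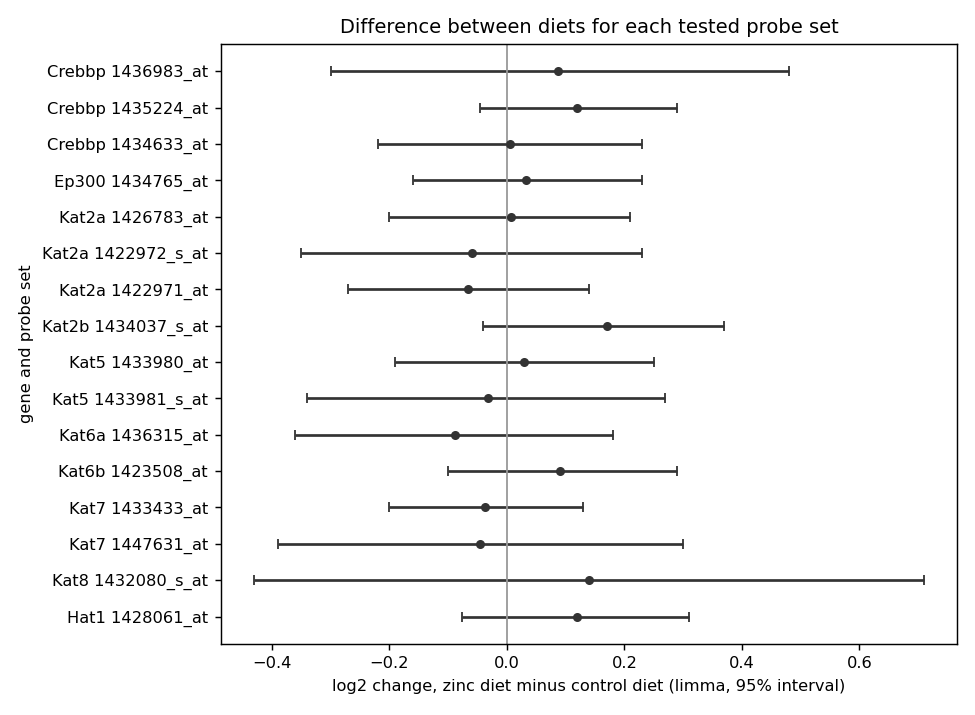
Log2 change from control diet to zinc diet (horizontal axis) of each tested probe set of the 10 genes, with the limma estimate as a point and its 95% interval as a bar. Each of the 16 intervals crosses 0, and that of Kat8 is the widest, from -0.43 to 0.71.

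Among the highest-mean probe sets of the 10 genes, leaving out Kat8, no interval reached beyond a 1.39-fold difference in either direction, the bound set by Crebbp. The median SE of the log2 change was 0.09 over the 16 probe sets, against 0.11 over all probe sets tested. The SD within a diet had a median of 0.10 over the 16 and of 0.13 over all. The 8 untested probe sets, which belong to Crebbp, Kat2b, Kat6a, Kat6b and Kat7, had means from 1.73 to 3.42, below the filter. Whether such levels stand above background was not tested.

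By the median over the members, the mice were alike but for control diet replicate 9. As a deviation from each gene's mean over the 6 arrays, the median over the 10 genes lay between -0.0078 and 0.038 in 5 arrays and was -0.10 in control diet replicate 9, where 5 of the 10 genes had their lowest value. These were Ep300, Kat2a, Kat2b, Kat5 and Kat6b. That array was also the one highest in choroid plexus markers and lowest in oligodendrocyte markers. Without it, 0 probe sets of the members passed an unadjusted p of 0.05 in the limma test. Single genes deviated further downward in control diet replicates 1 (lowest -0.57) and 11 (lowest -0.38) than in control diet replicate 9 (-0.16 to 0.37). The genes whose levels over the 6 arrays were most like those of Kat2b, the member with the smallest p, were Entpd3 (Pearson r 0.997), Clasp2 (0.993) and Plxnb3 (0.988), out of 29 genes with an r of at least 0.95. With 6 arrays, this is a description only.

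The partners of these enzymes, the readers of acetyl-lysine and the enzymes that supply acetyl-CoA were taken as 9 lists holding 112 tested genes, members excluded. Of these, 0 were called at the adjusted threshold (limma adjusted p of 0.699 or higher), against 0% of all genes tested. At an unadjusted limma p under 0.05, 4 were higher and 3 lower, or 6.25%, against 7.31% of all genes tested (4.49% higher and 2.82% lower), and the median log2 change was 0.006 (-0.014 after quantile normalization). The lists were thus near the background as well. The counts higher and lower fell to 1 and 0 on leaving out zinc diet replicate 7, to 2 and 0 on leaving out control diet replicate 11, to 1 and 1 on leaving out zinc diet replicate 10 and to 2 and 1 on leaving out control diet replicate 9. Median centring gave 4 and 0, and array weights 3 and 7. The share over all genes in each of these settings is not given here. These counts are therefore not to be set against the 7.31% of the full design or read as particular to the lists.

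Subunits of SAGA and ATAC had a median log2 change of 0.0077, with 10 of 20 above 0. Of the 20, 2 had an unadjusted limma p under 0.05, Tada2a and Taf6l, or 10%, where 7.31% of all genes tested did. The count ranged from 0 to 4 over the alternatives. It was 4 with array weights and 0 with median centring or without zinc diet replicate 7, control diet replicate 9 or control diet replicate 11. The share over all genes in these settings is not given, so these counts are not to be set against 7.31%. Here Tada2a, an adaptor that binds GCN5 or PCAF, was at 9.20, 9.27 and 9.39 in control diet replicates 1, 9 and 11 and at 9.10, 9.07 and 9.09 in zinc diet replicates 3, 7 and 10. The zinc diet mice lay below every control diet mouse, with a log2 change of -0.20 ± 0.077 (SE; limma adjusted p = 0.761). Taf6l, a SAGA subunit, gave -0.21 ± 0.087 (SE; limma adjusted p = 0.763) at a level of 4.03 against 4.24, close to the filter. Subunits of the TIP60 complex had a median of -0.051, with 5 of 16 above 0 and none past an unadjusted limma p of 0.05. Its scaffold Trrap was at -0.11 ± 0.084 and its ATPase Ep400 at -0.14 ± 0.096 (SE).

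Subunits of the MOZ, MORF and HBO1 complexes had a median of 0.048, with 6 of 8 above 0. Of the 8, 2 had an unadjusted limma p under 0.05, Brd1 and Jade2, where 7.31% of all genes tested did. The count was 1 without control diet replicate 1, control diet replicate 11, zinc diet replicate 3 or zinc diet replicate 7, and 0 without control diet replicate 9 or zinc diet replicate 10. Here too the share over all genes in these settings is not given, so the counts are not to be set against 7.31%. Brd1, a scaffold with a bromodomain, was at 8.88, 8.75 and 8.74 in control diet mice and at 8.93, 9.0 and 9.14 in zinc diet mice. The groups did not overlap, with a log2 change of 0.24 ± 0.086 (SE; limma adjusted p = 0.73), whereas a second probe set gave -0.041 ± 0.21. Jade2, an HBO1 scaffold, was at 10.09, 9.99 and 10.20 against 10.37, 10.23 and 10.35, which again did not overlap (0.23 ± 0.085 SE; limma adjusted p = 0.747). MSL and NSL subunits had a median of -0.044 with 4 of 11 above 0 and none past an unadjusted limma p of 0.05.

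In the list of CREB family and CBP/p300 partners, 9 of 13 genes lay above 0 (median 0.05). Crem, a CREB relative that also makes the activity-induced repressor ICER, had 6.83, 7.13 and 6.87 in control diet mice and 7.47, 7.30 and 7.14 in zinc diet mice. The lowest zinc diet mouse and the highest control diet mouse were nearly equal, and the log2 change was 0.36 ± 0.12 (SE; limma adjusted p = 0.699). Its second probe set gave -0.18 ± 0.13. Creb1 itself gave 0.083 ± 0.069 (SE), and 0.10 on its other tested probe set. Hat1 partners and histone chaperones (4 genes) had a median of -0.002.

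Other proteins with reported acetyltransferase activity had a median of 0.042, with 8 of 13 above 0. Cdyl, a chromodomain protein, was at 7.52 in control diet mice and 7.81 in zinc diet mice (0.30 ± 0.12 SE; limma adjusted p = 0.763), with the diets overlapping. The list of acetyl-lysine readers, taken by their bromodomain or YEATS domain, had a median of -0.0061, with 9 of 19 above 0. Whether each of its genes, Trim28 among them, binds acetyl-lysine was not examined. Trim28, a corepressor that works with zinc finger proteins, was at 9.61, 9.94 and 10.14 in control diet replicates 1, 9 and 11 and at 9.63, 9.38 and 9.62 in zinc diet replicates 3, 7 and 10. The groups overlapped by a narrow margin (-0.36 ± 0.15 SE; limma adjusted p = 0.765), and on a second probe set (-0.23 ± 0.074 SE) they did not overlap. Genes of acetyl-CoA supply had a median of 0.10, with 6 of 10 above 0. The median was 0.041 on leaving out control diet replicate 9, 0.055 on leaving out zinc diet replicate 7, 0.059 on leaving out zinc diet replicate 10 and 0.04 on the mean of each gene's probe sets. Acly, which makes acetyl-CoA from citrate, was at 0.11 ± 0.092 and Acss2, which makes it from acetate, at 0.13 ± 0.13 (SE). Other tested probe sets gave 0.072 and 0.034 for Acly and -0.018 for Acss2. Acss1, the mitochondrial relative of Acss2, was at -0.17 ± 0.093 and Slc25a1, the citrate carrier, at -0.17 ± 0.18 (SE).

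**Figure D4:**
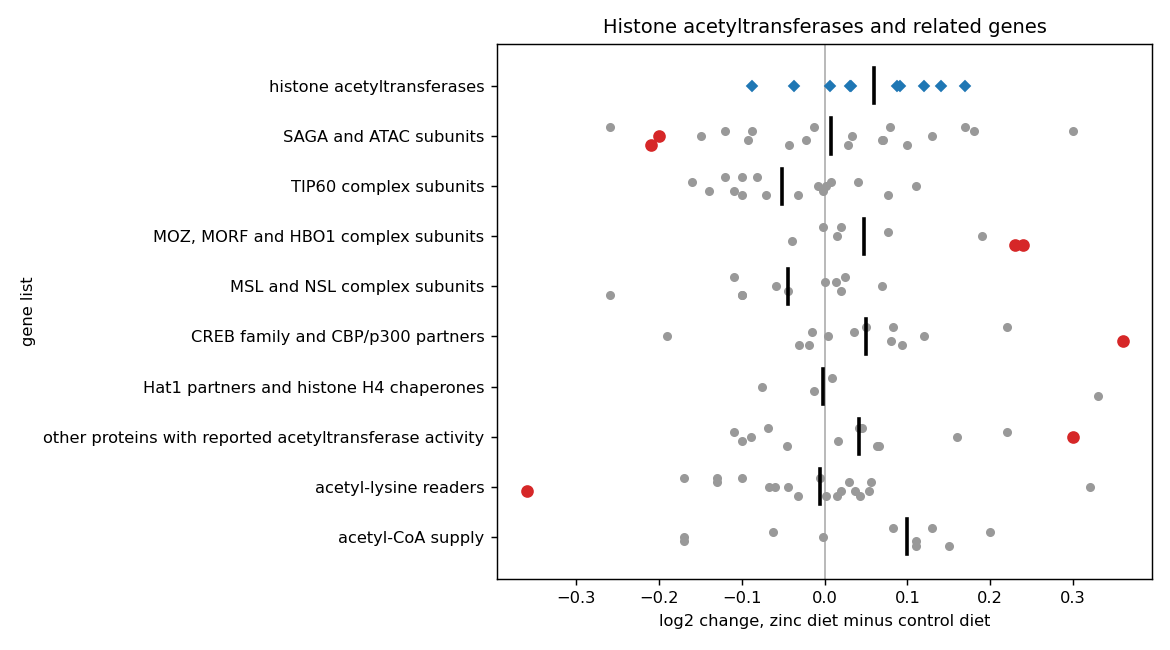
Log2 change from control diet to zinc diet (horizontal axis) of each gene in the lists related to histone acetylation, with 1 grey point per gene, red points for an unadjusted limma p under 0.05, blue diamonds for the 10 acetyltransferase genes and black bars for list medians. The list medians lie between -0.051 and 0.10, and the red points are 4 above 0 and 3 below.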

How the data were processed

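RNA from the amygdala was measured on 6 Affymetrix Mouse430_2 arrays, a 1-colour design, from 500 ng of total RNA per mouse, per the labels' protocols. The authors deposited log2 probe set levels. The submitters' processing notes name R (2.15.1) and GCRMA (2.28.0), with no role or options. Genome build and centring were not stated there. That the scale is log2 was inferred from the range of the values, 0.722 to 14.8. No detection calls were used, the number of arrays limits precision, and GCRMA can stretch or compress low values.

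Control probe sets (64) and the 9160 without a gene symbol were left out, as were those with a mean under 4. The platform annotation gave 1 symbol to 34945 probe sets and several to 932, which stayed in the fit but were not named. Entrez numbers linked 34754 to RefSeq names (GRCm38.p6), and 0 symbols changed. limma 3.58.1 (R 4.3.3) fitted diet as its single term (lmFit and eBayes, two-sided), with Benjamini-Hochberg adjustment over 20166 probe sets, after being tested on simulated data. SE is the moderated standard error. Each array is 1 mouse.

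The members, lists and tests were chosen with earlier results of these data known. Named besides the members were up to 3 genes per list with an unadjusted p under 0.05, the 3 genes most like the member with the smallest p, and, chosen after their values were seen, Trrap, Ep400, Creb1, Acly, Acss2, Acss1 and Slc25a1. A planned search of the MYST zinc finger sequences was not run, and the promoter search was added later. As alternatives, the filter was removed or raised to a mean of 6, arrays were quantile normalized or median centred, eBayes was run with trend and robust options, arrays were weighted, the title number was added as a covariate, values under 4 were raised to 4, a gene's probe sets were averaged, and each mouse was left out in turn. A fit that also kept probe sets without a symbol was chosen after seeing the data.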

Additional observations from a re-analysis of the deposited data

How the results depend on the processing

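Under 16 alternatives, 0 member probe sets passed an adjusted p of 0.05 and 0 passed an unadjusted p of 0.05 in limma (probe set counts were not run on gene means), and the smallest adjusted p of a member gene was 0.48. The median log2 change of the members was 0.0086 to 0.078 when each mouse was left out. The number of member probe sets whose diets did not overlap was 1 with quantile normalization, 1 with median centring and 2 to 4 when each mouse was left out. With a mouse left out the share over all probe sets rose to between 17.5% and 29.3%, so those counts are not to be set against the 12% of the full design. Of the 160 values of member genes, 148 kept their direction. The 12 that turned lay between -0.11 and 0.027. Without control diet replicate 9, Ep300 was -0.036, Kat2a -0.064 and Kat5 -0.041. Without zinc diet replicate 10, Kat2a was -0.025 and Kat5 -0.013. Without control diet replicate 11, Crebbp was -0.08 and Kat6a 0.027, and without control diet replicate 1, Kat8 was -0.11. Kat2a was also -0.019 under quantile normalization, -0.027 with array weights and -0.04 as the mean of its probe sets, where Kat5 was -0.0009. The cause was not tested. When each mouse was left out, these genes ranged from -0.08 to 0.21 (Crebbp), -0.036 to 0.068 (Ep300), -0.064 to 0.058 (Kat2a), -0.041 to 0.088 (Kat5), -0.15 to 0.027 (Kat6a) and -0.11 to 0.36 (Kat8). The others kept their sign, at 0.10 to 0.21 (Kat2b), 0.054 to 0.15 (Kat6b), -0.065 to -0.007 (Kat7) and 0.067 to 0.17 (Hat1). Of 288 list values, 237 stayed within 1.5 times the value reported (counts) or 1 SD between mice of it (medians). No paired analysis was possible because the diets share no replicate number. With 3 mice per diet, the intervals allow changes of the size given for each gene.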

Other observations

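The number in the sample titles, which is not a diet label, was set against the 16 tested member probe sets after their values were seen, with exact permutation tests over the 6 arrays (two-sided, 16 relations). For the Crebbp probe set 1434633_at, Pearson r was 0.89 (exact permutation p = 0.0028, adjusted 0.044) and Spearman rho 0.94 (p = 0.017, adjusted 0.13), with r = 0.89 when the 2 arrays with the most distant numbers were left out. For the Crebbp probe set 1436983_at it ran the other way, with r = -0.85 (exact permutation p = 0.026, adjusted 0.21), rho = -0.94 (p = 0.017, adjusted 0.13) and r = -0.85 without those 2 arrays. The third tested probe set of Crebbp, 1435224_at, gave r = 0.31 (exact permutation p = 0.56, adjusted 0.86), rho = 0.14 (p = 0.80, adjusted 0.92) and r = -0.28 without those arrays. The value without those 2 arrays rests on 4 arrays and was also high for other probe sets, at 0.88 (Kat2a, 1422972_s_at), 0.86 (Kat7, 1433433_at), 0.85 (Kat6a, 1436315_at) and 0.81 (Kat5, 1433981_s_at), whose r over all 6 arrays was 0.63, 0.40, 0.47 and 0.026, so it adds little to the values for Crebbp. Each diet has 3 arrays, too few for a value within a diet. What the number stands for was not stated in the labels used here.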
